A study of Homo sapiens with 4 samples.

Results

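The genes described here are the human zinc finger genes of chromosome 19 that carry a plain ZNF number as their symbol and averaged at least 1 FPKM (a fragment count divided by transcript length and sequencing depth) over 4 samples of HMLE cells. They were chosen by symbol, chromosome and mean level. The table lists 60302 genes, of which 263 on chromosome 19 have such a symbol, and 164 of these reached the level. The same limit was the filter for the tests, so all 164 were tested. The other 99 averaged less than 1 FPKM, and 15 of them are listed at 0 in all 4 samples. HMLE is an immortalized human mammary epithelial cell line. In 2 samples the cells stably expressed a lentiviral short hairpin RNA against HNRNPF (knockdown 1 and 2), and in 2 they stably expressed a non-specific hairpin from the same kind of vector (control 1 and 2). All 4 samples therefore come from infected cells, and the labels do not say whether the lines are pools or clones, whether the 2 lines of a group carry different hairpins, or whether a number pairs samples across groups. PolyA-selected RNA was sequenced as stranded paired-end libraries. The study's title concerns RNA G-quadruplexes and alternative splicing through hnRNP F, which binds runs of G in RNA and regulates splice site choice. The table holds 1 value per gene, so splicing itself was not analysed here.

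Most C2H2 zinc finger proteins of chromosome 19 are DNA-binding repressors. Each finger holds a zinc ion between a pair of cysteines and a pair of histidines and reads a few bases of DNA, and many of the proteins begin with a KRAB domain that recruits TRIM28 and, through it, histone H3K9 methylation. The genes lie in large tandem clusters that grew by repeated duplication, many bind transposable elements, and near-identical copies are common, so fragments can be hard to assign to one copy.

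The members share short coding sequences. A letter pattern of the C2H2 finger was found 0 to 32 times (median 12) in the translated GENCODE 29 coding sequence of the 161 members annotated as protein-coding. ZNF91 had the highest count, with 32. ZNF738, whose listed product matched no finger, had 0. The 3 coding stretches of 24 bases below are shown because they were among the most widely shared within the group, and the capitals mark the 14 bases that they have in common. These bases encode the linker that joins one finger to the next.
stretch 1: aattcatACTGGAGAGAAACCtta
stretch 2: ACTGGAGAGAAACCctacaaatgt
stretch 3: tcacACTGGAGAGAAACCctatga

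Stretch 1 occurred in 29 of the 161 coding sequences, stretch 2 in 19 and stretch 3 in 18. The capitals alone, ACTGGAGAGAAACC, occurred in 90 of the 161 (55.9%), with 372 copies in all and up to 16 in 1 gene. The same 14 bases occurred in 51 of 206 tested ZNF genes of other chromosomes (24.8%), and in 15 of 12585 other tested genes of any chromosome (0.119%). Members were searched in a coding sequence and these other genes in their longest transcript, coding or not, so the shares are unlike measures. Each stretch was chosen because it is frequent in the group, so these shares are a description. In spite of the repeated linker, the longer sequence of most members was their own: a median of 1.56% of the 50-base words of a member's transcript also occurred in another listed gene, 103 members shared under 5% and 20 members shared over 20%.

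At their starts some of the genes also looked alike. The 30-base stretches below come from RefSeq promoters (GRCh38.p14, transcript strand) of 14 members of the cluster that runs from ZNF175 to ZNF331, which held the most members that were higher in knockdown by count. Of the genes shown, only ZNF320, ZNF616, ZNF808, ZNF816 and ZNF880 had both knockdown samples above both control samples. ZNF160 and ZNF845 had log2 fold changes of -0.06 and -0.007. The capitals mark CCGGAAG, the core of the site bound by ETS transcription factors, which was chosen after the sequences were seen. Only stretches that hold it are shown, aligned on it. The promoters of ZNF350 and ZNF331, of the same cluster, had no match.
ZNF816: tggcacagacCCGGAAGcggatggcgtgga
ZNF320: tggcatagacCCGGAAGcggatggcaggga
ZNF765: tcgcgcagacCCGGAAGcggacggcgtgga
ZNF808: taacgcaaacCCGGAAGcggatcgggtgga
ZNF611: taacgcaaacCCGGAAGcggatcgggtgga
ZNF845: tcgcgcaaacCCGGAAGcggatcgcatgga
ZNF880: tcctggagacCCGGAAGcagattacgtgga
ZNF83: gcgcgcaaacCCGGAAGcggattatgtgga
ZNF525: gcgcgcaaacCCGGAAGcagatcgcgtgga
ZNF766: gcctgcagacCCGGAAGtggatggcgtgga
ZNF160: gcccacagacCCGGAAGtggatcgtgcgga
ZNF677: tcctgccgacCCGGAAGcggatctcgcggg
ZNF841: tcctgcacacCCGGAAGcagatcgcgctgg
ZNF616: tccgtcactcCCGGAAGcagattgcgccag

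The stretch of ZNF816 lies at chr19:52962856-52962885 on the minus strand and that of ZNF320 at chr19:52897669-52897698, also on the minus strand. ZNF320 and ZNF765 each had 27 of 30 bases identical to ZNF816, ZNF845 had 25, ZNF808, ZNF611, ZNF525 and ZNF766 had 24, ZNF83 and ZNF160 had 23, ZNF880 had 22, ZNF677 had 21, ZNF841 had 20 and ZNF616 had 18. These counts include the bases of CCGGAAG, which are identical in all the stretches because they were selected for it. RefSeq promoters around annotated starts were matched for 145 members with 182 starts. CCGGAAG on either strand was present in 76 of the 182 (41.8%), against 10.3% of all 35116 promoters and 31.2% of the 234 promoters of tested ZNF genes elsewhere. The set of all promoters was not limited to tested genes, unlike the members and the ZNF genes elsewhere, so it is an unlike set. Within the ZNF175 to ZNF331 cluster 20 of 38 promoters held it (52.6%). A longer form, CCGGAAGCG, which includes the first motif, was present in 17 of the 182 promoters (9.34%) and in 1.34% of all promoters. Promoters of tested ZNF genes elsewhere held it in 3.42% of cases. Of the 17, 10 belonged to the ZNF175 to ZNF331 cluster (26.3% of its 38 promoters). Many of the stretches shown above hold this longer form, so its shares are a description. A G-quadruplex pattern, counted as 4 runs of at least 3 G with 1 to 7 bases between them on either strand, was present in 19.2% of the members' promoters, in 19 of the cluster's 38 and in 8778 of all 35116. These are matches of letters in DNA, not measurements of a bound factor or a folded RNA.

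The hairpin target checked the labels. HNRNPF had 18.7 and 16.6 FPKM in knockdown 1 and 2, against 154 and 153 FPKM in control 1 and 2, a log2 fold change of -3.05 ± 0.10 (SE) with a limma adjusted p of 0.0251. It passed the adjusted threshold of 0.05 alone among the 13110 tested genes (0.00763%), and it did not pass when control 1 (adjusted p = 0.262) or control 2 (adjusted p = 0.104) was left out. Tests were made with limma on log2(FPKM + 1), and fold changes on that scale understate the change of genes near 1 FPKM, where most members lie. The summed FPKM of all genes ran from 391184 to 396135 per sample. Between 12664 and 13390 genes reached 1 FPKM, with both replicate 1 samples above both replicate 2 samples, and mitochondrial genes took 8.60% and 8.97% of FPKM in knockdown 1 and 2, against 8.82% and 6.97% in control 1 and 2. Mammary basal markers (5 of 5 at 1 FPKM or more) summed to 8727 and 9859 FPKM in knockdown 1 and 2, against 6811 and 10318 in control 1 and 2, and the 4 epithelial markers to 495 to 578 FPKM. Of the immune markers, LYZ had at most 0.169 FPKM, PTPRC had at most 0.0384 FPKM and CD3E was listed at 0 in every sample. The 2 endothelial markers that were listed summed to at most 0.0677 FPKM, and the 4 fibroblast markers to between 9.78 and 13.0, nearly all of it COL1A1.

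Levels of the zinc finger genes were low and narrowly spread. Their mean over the 4 samples ran from 1.01 to 15.2 FPKM, with a median of 2.35 FPKM against 9.63 FPKM for all tested genes. In 66 members it was under 2 FPKM, 27 reached 5 FPKM and 6 reached 10 FPKM. At the threshold, ZNF345 (1.05 FPKM), ZNF792 (1.01) and ZNF470 (1.04) were the last genes included, and ZNF419 (0.987 FPKM), ZNF30 (0.965) and ZNF793 (0.939) were the first left out.

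Summed over the 164 genes, FPKM came to 615.5 and 479.2 in knockdown 1 and 2, against 579.2 and 435.7 in control 1 and 2. The order of the 4 sums followed the replicate number: both replicate 1 samples were above both replicate 2 samples, and within each number the knockdown sample was the higher. Knockdown averaged 547 ± 96.4 FPKM and control 507 ± 102 FPKM (SD, n = 2 each), a ratio of 1.08 that is smaller than the spread within either group. Replicate 1 over replicate 2 gave 1.28 in knockdown and 1.33 in control. In bulk RNA, fewer cells that express a gene and less RNA per cell cannot be told apart.

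Among the most abundant members the same order was visible. ZNF83 had the highest mean of the group and measured 21.2 and 11.9 FPKM in knockdown 1 and 2, against 17.6 and 10.1 FPKM in control 1 and 2. ZNF587, a KRAB protein known to repress endogenous retroviruses, measured 15.8 and 7.53 FPKM in knockdown, against 13.0 and 6.52 FPKM in control. ZNF121 measured 12.6 and 5.18 FPKM in knockdown, against 10.8 and 5.17 FPKM in control. In these 3 genes replicate 1 was well above replicate 2 in both groups and the groups overlapped. ZNF146, which consists almost wholly of fingers, ran in opposite directions, with 7.94 and 23.96 FPKM in knockdown 1 and 2, against 16.9 and 5.76 FPKM in control 1 and 2. ZNF274, which brings the methyltransferase SETDB1 to the 3′ ends of zinc finger genes themselves, measured 15.98 and 12.04 FPKM in knockdown, against 11.3 and 10.05 FPKM in control. Its groups did not overlap, but the log2 difference of 0.35 ± 0.17 (SE) had a limma adjusted p of 0.872. The other 5 of the 10 most abundant, ZNF787, ZNF561, ZNF544, ZNF580 and ZNF524, stayed between 7.99 and 13.9 FPKM in every sample.

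**Figure D1:**
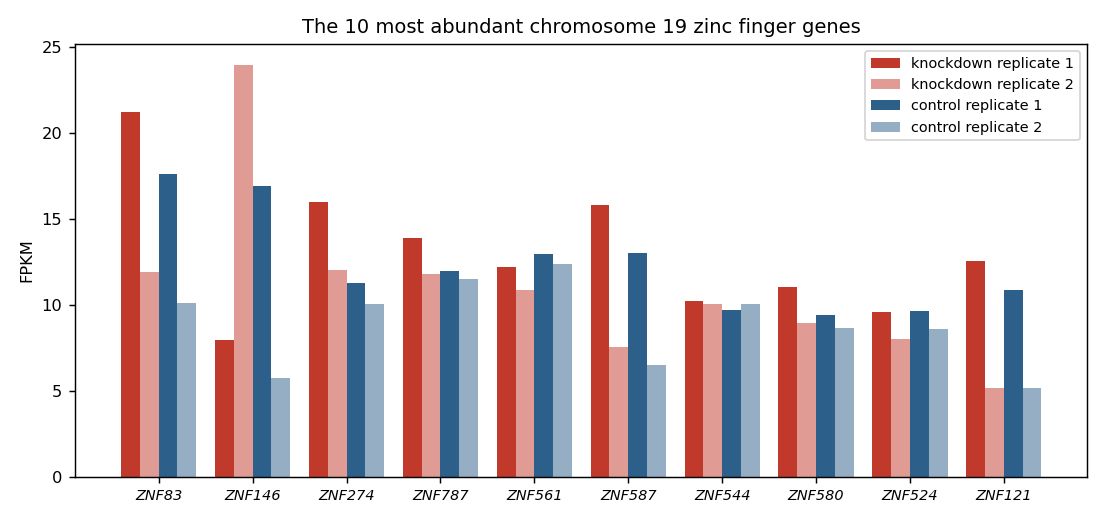
FPKM of the 10 members with the highest mean, 1 bar per sample, in knockdown (red) and control (blue) replicates. In ZNF83, ZNF587 and ZNF121 replicate 1 stands above replicate 2 in both groups, and ZNF146 ranges from 5.76 to 23.96 FPKM with no common order.

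Between knockdown and control no member passed the adjusted threshold; the lowest limma adjusted p among them was 0.608. At an unadjusted p under 0.05, 3 members were higher in knockdown (background 3.06% of all tested genes) and 4 were lower (background 3.02%). Counting genes whose 2 groups did not overlap, 37 members (22.6%) had both knockdown samples above both control samples, against 17.5% of all tested genes, and 11 members (6.71%) had both below, against 17.1%. Tested genes of 1 to 5 FPKM, a level like that of most members, gave 20.8% and 10.3%, and ZNF genes of other chromosomes gave 18.0% and 13.1%. After quantile normalization the members' counts were 34 higher and 20 lower (20.7% and 12.2%), against 17.02% and 18.96% of all tested genes. After median-ratio scaling they were 44 and 12 (26.8% and 7.32%), against 17.6% and 17.6%. A mean limit lets in a gene that reaches it in 1 group, and 9 members averaged under 1 FPKM in control and 1 in knockdown. Over the 154 members with both group means at 1 FPKM or more, a restriction chosen after the values were seen, 33 were higher and 11 lower without overlap (21.4% and 7.14%), against 17.1% and 17.2% of tested genes so restricted. The median log2 fold change of the 164 was 0.10, with 118 above 0, beside 0.00 for all tested genes and 0.04 for genes of 1 to 5 FPKM.

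The sign of that median changed with the sample left out, which leaves the replicate numbers unequal between the groups. Without knockdown 1 it was -0.07 and without control 2 it was -0.04, while without knockdown 2 it was 0.22 and without control 1 it was 0.22. Within a number, knockdown 1 exceeded control 1 in 110 of the 164 genes with a median log2 difference of 0.10 (all tested genes 0.00), and knockdown 2 exceeded control 2 in 114 with a median of 0.09 (all tested genes 0.00). Across numbers, knockdown 1 exceeded control 2 in 147 genes with a median of 0.33 (all tested genes 0.11), and knockdown 2 exceeded control 1 in 50 with a median of -0.19 (all tested genes -0.11). Among all tested genes, knockdown 1 exceeded control 1 in 48.8% and control 2 in 65.9%. Knockdown 2 exceeded control 2 in 51.0% of them and control 1 in 34.7%. Taken 1 pair at a time, each knockdown sample was thus above the control sample of the same number in most members. Knockdown 2 exceeded control 1 in a minority. The members that went the same way in both pairs were not counted.

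Of the members higher in knockdown, the 3 with an unadjusted p under 0.05 were ZNF626, ZNF28 and ZNF320. ZNF626 (chr19:20802867-20844402, GRCh37, minus strand) measured 1.91 and 1.51 FPKM in knockdown, against 0.895 and 0.728 FPKM in control. It reached the level limit only through its knockdown values, so its place among the members and its difference, 0.58 ± 0.17 (SE) on the log2 scale, are a description. ZNF28 (chr19:53300662-53360853, minus strand) measured 6.90 and 5.20 FPKM in knockdown, against 3.53 and 3.77 FPKM in control, a log2 difference of 0.59 ± 0.18 (SE) with a limma adjusted p of 0.773. In ZNF28 the lower knockdown sample was well clear of the higher control sample. ZNF28 overlaps ZNF600 and ZNF468 on the same strand, and the log2 difference of its FPKM summed with both was 0.37. ZNF320 (chr19:53367043-53400946, minus strand) measured 9.83 and 7.43 FPKM in knockdown, against 5.60 and 5.41 FPKM in control, a log2 difference of 0.56 ± 0.17 (SE) with a limma adjusted p of 0.782. In the GENCODE 29 transcript 99.5% of its 50-base words also occurred in another listed gene, most often ZNF468, so its value is uncertain. ZNF468 itself measured 4.61 and 4.66 FPKM in knockdown, against 4.35 and 4.02 FPKM in control.

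The next 7 by p were ZNF350, ZNF134, ZNF880, ZNF816, ZNF738, ZNF808 and ZNF321P, with log2 differences of 0.32 to 0.72. ZNF350, which is also known as ZBRK1 and works with BRCA1 as a repressor, measured 2.58 and 2.34 FPKM in knockdown, against 1.74 and 1.57 FPKM in control. ZNF808 measured 4.77 and 3.20 FPKM in knockdown, against 2.86 and 1.72 FPKM in control, and shared 28.6% of its 50-base words, most with ZNF701. ZNF321P, a pseudogene by name, measured 4.36 and 3.22 FPKM in knockdown, against 1.18 and 2.80 FPKM in control, and shared 40.5% with a read-through transcript from ZNF816. In ZNF808 and ZNF321P the 2 control values lay further apart than the gap between the groups.

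Of the members lower in knockdown, ZNF627, ZNF548, ZNF584 and ZNF331 had an unadjusted p under 0.05. ZNF331 (chr19:54024235-54083523, plus strand), an imprinted gene, measured 4.16 and 2.38 FPKM in knockdown, against 9.31 and 5.90 FPKM in control, 2.33-fold lower by means. Its log2 difference of -1.02 ± 0.31 (SE) was the lowest of the 164 and had a limma adjusted p of 0.777. Replicate 1 was above replicate 2 in both groups, and no knockdown value reached a control value. ZNF627 (chr19:11670189-11729950, plus strand) measured 1.22 and 1.83 FPKM in knockdown, against 3.46 and 3.60 FPKM in control, with a log2 difference of -0.85 ± 0.19 (SE) and a limma adjusted p of 0.608. ZNF548 (chr19:57901218-57914360, plus strand) measured 1.76 and 1.32 FPKM in knockdown, against 3.38 and 3.09 FPKM in control, and ZNF584 (chr19:58912871-58929694, plus strand) measured 3.18 and 2.75 FPKM in knockdown, against 5.91 and 4.82 FPKM in control. In ZNF627, ZNF548 and ZNF584 the gap between the groups exceeded the difference between the 2 control samples.

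The other 7 without overlap, ZNF446, ZNF507, ZNF562, ZNF383, ZNF473, ZNF576 and ZNF561, had log2 differences of -0.51 to -0.13. ZNF473, also called ZFP100, takes part in the 3′ end processing of histone mRNA and measured 3.23 and 3.004 FPKM in knockdown, against 3.74 and 3.86 FPKM in control. ZNF446, a SCAN-domain gene, overlaps ZNF324 on the same strand, and its log2 difference was -0.37 alone and -0.14 when summed with overlapping genes. By the ratio of means 7 members differed at least 2-fold: ZNF626 and ZNF302 were higher in knockdown, and ZNF331, ZNF627, ZNF329, ZNF548 and ZNF358 were lower. No share of all tested genes is given for this cut, so the 7 are a description. The groups overlapped in ZNF302, ZNF329 and ZNF358, the last because control 1 had 8.96 FPKM and control 2 had 2.08 FPKM; these 3 are named after their values were seen, ZNF302 also by the rule on replicates.

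**Figure D2:**
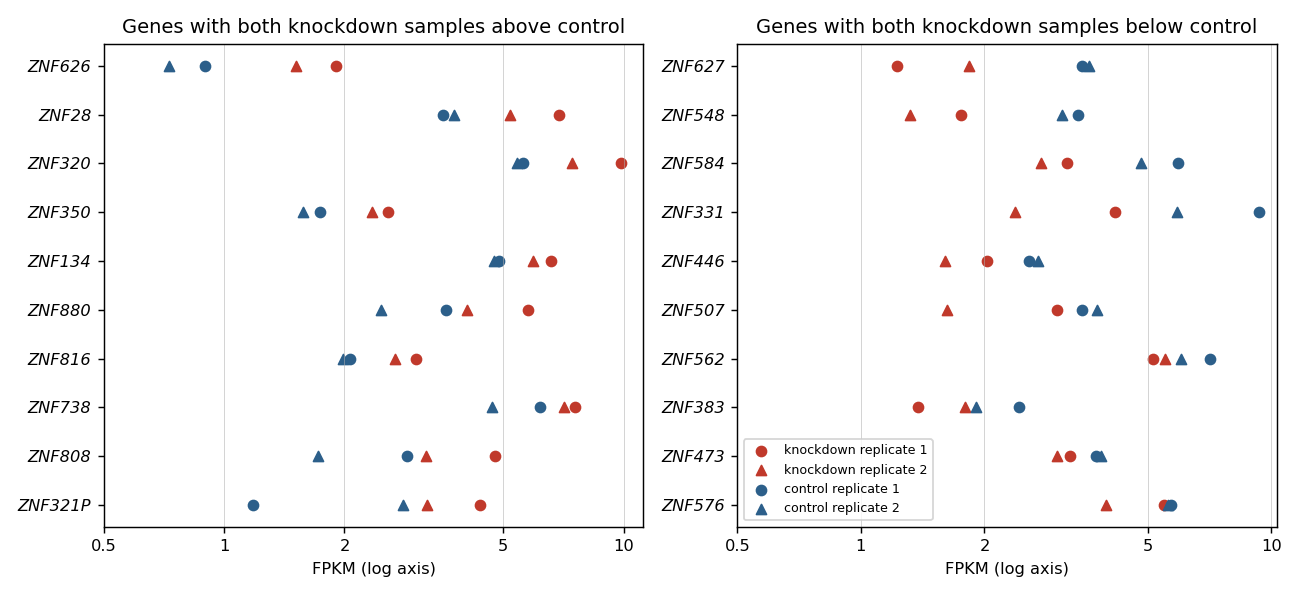
FPKM on a log axis in each of the 4 samples for the 10 members with the smallest p among those with both knockdown samples above both control samples (left) and below (right); circles are replicate 1 and triangles replicate 2. The gap between the colours is wide in ZNF28, ZNF627 and ZNF548, and in ZNF626, which reached the level limit through knockdown only, and narrow in ZNF383 and ZNF576.

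Several members and their relatives have a described role in repression. ZNF91, which represses SVA elements, measured 7.04 and 4.02 FPKM in knockdown, against 6.89 and 3.37 FPKM in control. ZNF417, a close relative of ZNF587, measured 3.38 and 1.88 FPKM in knockdown, against 3.15 and 1.62 FPKM in control, and it shared 40.1% of its 50-base words, most with ZNF587. ZNF765 measured 3.18 and 1.89 FPKM in knockdown, against 2.68 and 1.59 FPKM in control. In ZNF91, ZNF417 and ZNF765 replicate 1 was above replicate 2 in both groups, and the 2 groups overlapped. ZNF649 was level, with 2.84 and 2.83 FPKM in knockdown, against 2.82 and 2.42 FPKM in control. ZNF224, first known as a repressor of aldolase A, measured 5.22 and 2.81 FPKM in knockdown, against 5.44 and 2.57 FPKM in control. Below the level limit, ZNF93, a repressor of LINE-1 elements, was listed at 0.638 and 0.599 FPKM in knockdown, against 0.331 and 0.320 FPKM in control, and ZNF154 at 0.590 and 0.371 FPKM in knockdown, against 0.264 and 0.171 FPKM in control; neither was tested.

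Along the chromosome the listed genes fall into 17 groups, called clusters here, when neighbours over 1 Mb apart are split (GRCh37). Some of the 17 hold a single listed gene, and some hold no member. The cluster of ZNF175 to ZNF331 (chr19:52074551-54083523) held 31 members of 43 listed genes. In it 11 members (35.5%) were higher in knockdown without overlap and 1, ZNF331 (3.23%), was lower, against 17.5% and 17.1% of all tested genes, and 27 of 31 (87.1%) had a log2 fold change above 0, against 50.2%, with a median of 0.17. Some genes of this cluster overlap or share sequence, such as ZNF28 with ZNF468, so the counts are not of separate measurements. The cluster's FPKM summed to 132 and 90.2 in knockdown 1 and 2, against 105 and 81.4 in control 1 and 2, so the groups overlapped in the sum. Of the 10 named members with the smallest p on the higher side, 7 came from this cluster. It did not stand alone: the 19 members from ZNF565 to ZNF573 had a median of 0.18, with 4 higher and 1 lower (21.1% and 5.26%), and the 11 members from ZNF653 to ZNF791 had a median of 0.10, with 4 higher and 1 lower (36.4% and 9.09%).

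The largest cluster, ZNF628 to ZNF446 (chr19:55987699-58992597), held 41 members of 61 listed, of which 10 were higher and 3 lower without overlap (24.4% and 7.32%), with a median log2 fold change of 0.12. Between ZNF101 and ZNF254 (chr19:19779605-24312763), where 17 of 41 genes were members, 5 were higher (29.4%) and 0 lower, with a median of 0.11. The 18 members of the cluster with ZNF576 and ZNF180 (chr19:44029649-45579846) gave 1 higher and 1 lower (5.56% each) and a median of -0.02, and the 12 members from ZNF557 to ZNF846 gave 1 higher and 2 lower (8.33% and 16.7%) and a median of -0.02. All these shares stand beside the 17.5% and 17.1% of all tested genes. The differences between clusters were not tested. A KRAB letter pattern was found in 109 of the 161 coding members, which is a lower limit because the pattern misses variant domains. Those 109 had 29 higher and 6 lower without overlap (26.6% and 5.50%) and a median log2 fold change of 0.11. The 52 without a match had 6 higher and 5 lower (11.5% and 9.62%), both under the shares of all tested genes, and a median of 0.07. Of the 37 members higher without overlap, 4 averaged under 1 FPKM in control, among them ZNF626 of the ZNF101 to ZNF254 cluster. They reached the level limit only through knockdown. The shares by cluster and by KRAB match were not recomputed without them, so they are a description.

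**Figure D3:**
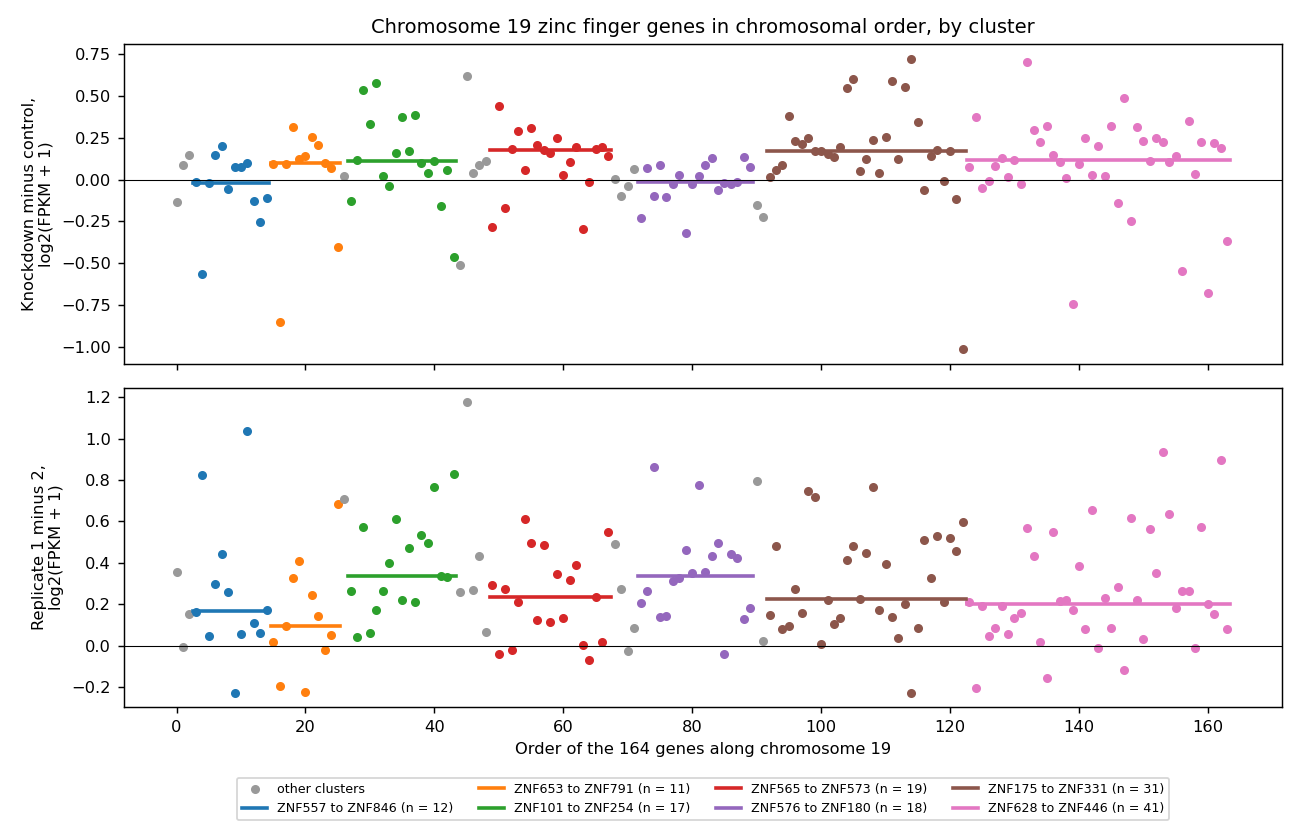
Each point is 1 of the 164 genes, in order along chromosome 19; the upper panel gives knockdown minus control and the lower panel replicate 1 minus replicate 2, both on the log2(FPKM + 1) scale, and bars are medians of clusters with at least 10 members. Points of the ZNF175 to ZNF331 cluster lie mostly above 0 in both panels, and every cluster median in the lower panel is above 0.

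As deposited, the values of the zinc finger genes differed more between replicate numbers than between groups. In 117 of the 164 genes (71.3%) replicate 1 was above replicate 2 in both groups, against 52.4% of all tested genes, and in 3 genes (ZNF266, ZNF20 and ZNF627) replicate 2 was above replicate 1 in both, against 18.4%. At an unadjusted p under 0.05, 61 members were higher in replicate 1 (background 21%) and 0 were higher in replicate 2 (background 3.52%). No gene passed the adjusted threshold (0% of all tested genes), and the lowest limma adjusted p of a member was 0.101. The median of replicate 1 minus replicate 2 was 0.23 on the log2 scale for the members, with 0.26 within knockdown and 0.26 within control, and 0.10 for all tested genes. A ratio of at least 1.5 in the same direction in both groups was reached by 35 members (21.3%), all with replicate 1 higher, against 6.97% of all tested genes.

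The counts and medians changed with the scaling. Across all tested genes the replicate median of 0.10 became -0.01 after median-ratio scaling and -0.02 after quantile normalization. The members' own medians were then 0.15 and 0.04, which is 0.16 and 0.06 above those of all tested genes, beside 0.13 above as deposited. Under median-ratio scaling 92 members were higher in replicate 1 in both groups and 16 in replicate 2, 56.1% and 9.76%, against 33.4% and 36.3% of all tested genes. Under quantile normalization the members gave 69 and 36, 42.1% and 22.0%, against 31.2% and 37.0%. Genes of 1 to 5 FPKM had a median of 0.16 as deposited, 0.07 under median-ratio scaling and -0.04 under quantile normalization. The excess of replicate 1 among the members was therefore present under each scaling, and smallest under quantile normalization, where the members' median replicate difference (0.04) and median knockdown difference (0.05) were alike.

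ZNF302 had the widest difference of the genes that moved the same way in both groups, with 6.55 and 1.47 FPKM in knockdown 1 and 2, against 2.63 and 1.17 FPKM in control 1 and 2. Its mean log2 difference between replicate 1 and 2 was 1.18. ZNF121, described above, had 1.04, and ZNF587 had 0.94. ZNF324 measured 3.31 and 1.15 FPKM in knockdown, against 2.51 and 1.04 FPKM in control, and shared 34.2% of its 50-base words, most with ZNF446. ZNF283 measured 3.72 and 1.69 FPKM in knockdown, against 4.22 and 1.78 FPKM in control. In ZNF324 and ZNF283 the replicate 1 values of both groups were more than 2-fold the replicate 2 values, whichever the hairpin. On the other side, ZNF266 measured 2.31 and 2.82 FPKM in knockdown 1 and 2, against 2.10 and 2.68 FPKM in control 1 and 2. ZNF20 measured 1.44 and 1.54 FPKM in knockdown, against 0.970 and 1.58 FPKM in control, and 71.9% of its 50-base words also occurred in a read-through transcript.

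**Figure D4:**
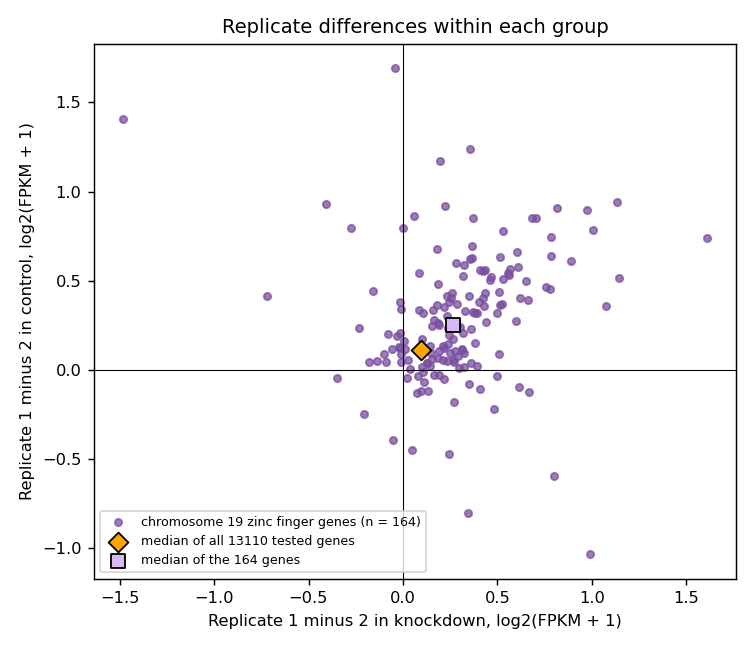
Each point is 1 of the 164 genes; the horizontal axis gives replicate 1 minus replicate 2 in knockdown and the vertical axis the same in control, on the log2(FPKM + 1) scale, with the medians of the 164 genes (square) and of all 13110 tested genes (diamond). Most points lie to the upper right of both zero lines, where replicate 1 is higher in both groups.

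Base composition moved with this difference. The members' transcripts had a median GC content of 42.3%, against 48.2% for all tested genes. In the lowest GC tertile of tested genes, 101 members had a median replicate difference of 0.31, against 0.14 for all tested genes of that tertile. In the middle tertile 44 members had 0.22, against 0.08, and in the highest tertile 19 members had 0.08, against 0.07. The part of GC content in the result was not tested. By position, 16 of 17 members between ZNF101 and ZNF254 and 16 of 18 in the cluster with ZNF576 and ZNF180 were higher in replicate 1 in both groups, with medians of 0.34 in each, against 24 of 31 and 0.23 in the ZNF175 to ZNF331 cluster. Members with at least 12 fingers (90) had a median of 0.26, and those with fewer (71) had 0.21. Among the 27 members of at least 5 FPKM, 22 (81.5%) were higher in replicate 1 in both groups, against 49.2% of all tested genes of that level. The order was therefore not limited to genes near the level limit.

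Of the gene sets compared here the chromosome 19 zinc finger genes had the highest share in this order; the difference between sets was not tested. ZNF genes of other chromosomes (206 tested) were higher in replicate 1 in both groups in 61.2% of cases with a median of 0.15. The 743 other tested genes of chromosome 19 were so in 45.1% with a median of 0.06. Tested genes of 1 to 5 FPKM were so in 59.7%.

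**Figure D5:**
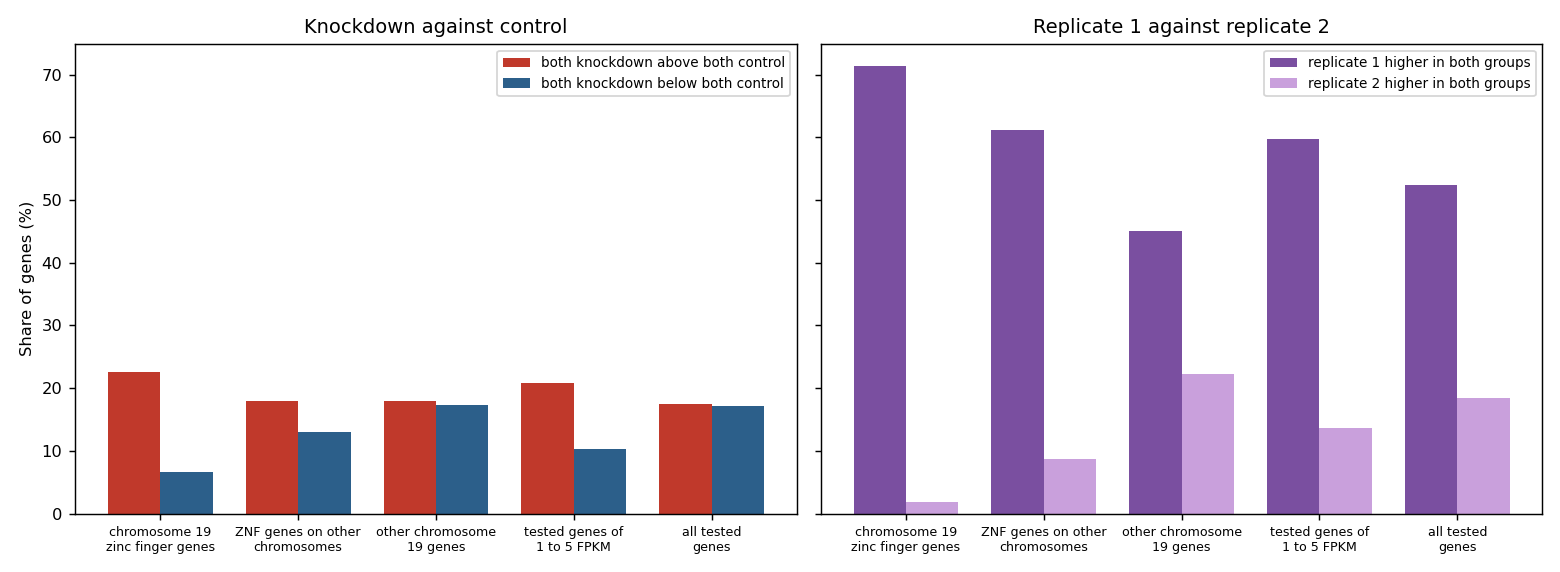
Share of genes in 5 sets, in percent. The left panel gives genes whose 2 knockdown samples were both above (red) or both below (blue) the 2 control samples, and the right panel genes with replicate 1 (dark) or replicate 2 (pale) higher in both groups; the chromosome 19 zinc finger genes have 22.6% and 6.71% on the left and 71.3% and 1.83% on the right.

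The partners of KRAB repression were abundant and differed little between the groups. All 32 genes of a list of co-repressor, H3K9 methylation, HP1, HUSH and SUMO genes were tested. At an unadjusted p under 0.05 0 were higher and 0 were lower in knockdown, against 3.06% and 3.02% of all tested genes. Without overlap 3 were higher and 5 lower (9.38% and 15.6%), against 17.5% and 17.1%, and the median log2 fold change was 0.04, which ran from -0.07 to 0.08 when each sample was left out. TRIM28, the co-repressor that KRAB domains bind, measured 125 and 134 FPKM in knockdown, against 179 and 135 FPKM in control. SUV39H2, a methyltransferase for H3K9, measured 6.82 and 8.16 FPKM in knockdown, against 9.43 and 9.12 FPKM in control. The 3 others with the smallest p were the chromatin remodeller CHD3, the deacetylase HDAC1 and MORC3, and their log2 differences ran from -0.19 to 0.23.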

How the data were processed

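The authors deposited 1 table of FPKM per gene and sample for 2 knockdown and 2 control samples. Per the submitters' processing notes the build was GRCh37, and Cuffdiff 2.2.1 and STAR 2.5.3a were used, in roles not given; the annotation release is not given in the sources used here. Depth per sample is unknown. Between 34.0% and 37.2% of low values, multiplied by the genomic span of the gene, were whole multiples of 1 step within 0.02. The span includes introns, so this check cannot decide whether whole reads could be had. Count models were not used. The 13110 genes averaging 1 FPKM or more were tested on log2(FPKM + 1), two-sided, in R 4.3.3 by limma 3.58.1 (intensity trend, Benjamini-Hochberg adjustment). Knockdown against control had no covariate; replicate 1 against 2 was fitted with group. The labels do not say that samples come from separate infections, so p-values measure the spread between these samples, which may be technical. Members, lists and motifs were chosen with earlier results of these data known. Named members are the 10 higher and 10 lower with the smallest p among those without overlap, the 10 most abundant, up to 5 per direction by replicate difference, 3 on each side of the level limit and preset genes with a described role; exceptions are marked. GENCODE 29 gave transcripts, coding sequence and finger counts (a GC value for 98.8% of tested genes), and RefSeq gave promoters; their coordinates are on another build. Coordinates of genes are the file's. The fit was tested on simulated data. One immune marker is not reported here.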

Additional observations from a re-analysis of the deposited data

How the results depend on the processing

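No member passed the adjusted threshold of the limma fits under any alternative. At an unadjusted p under 0.05 the members higher in knockdown (3) numbered 1 with a 5 FPKM filter, 9 with no filter, 8 with median-ratio scaling, 7 with no trend, 7 with quantile normalization and 18 with the replicate number as a block, and 0 to 4 when each sample was left out. As shares these are 3.70%, 5.49%, 4.88%, 4.27%, 4.27%, 11.0% and 0% to 2.44% of the members, beside 2.79%, 1.78%, 3.27%, 3.20%, 3.17%, 7.41% and 1.503% to 3.09% of all genes fitted. Those lower (4) numbered 1 with the 5 FPKM filter (3.70%, all genes 3.72%) and 1 to 9 when each sample was left out (0.610% to 5.49%, all genes 1.91% to 3.68%). Without overlap, members higher (37) numbered 4 with the 5 FPKM filter, which keeps 27 members (14.81%, all genes 15.99%). With that filter the members' share on the higher side was therefore not above that of all genes. Members higher numbered 44 to 110 when each sample was left out (26.8% to 67.1%, all tested genes 25.8% to 42.4%). Members lower (11) numbered 4 with that filter (14.81%, all genes 20.16%) and 20 with quantile normalization (12.2%, all genes 18.96%). They numbered 13 to 48 when each sample was left out (7.93% to 29.3%, all tested genes 25.3% to 43.3%).

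Members higher in replicate 1 at an unadjusted p under 0.05 (61) numbered 9 with the 5 FPKM filter (33.3%, all genes 17.3%) and 25 with quantile normalization (15.2%, all genes 10.02%). Those higher in replicate 1 in both groups (117) numbered 22 with that filter (81.5%, all genes 49.2%) and 69 with quantile normalization (42.1%, all genes 31.2%). Members higher in replicate 2 at an unadjusted p under 0.05 (0) numbered 1 with no filter (0.610%, all genes 1.06%) and 1 with median-ratio scaling (0.610%, all genes 9.05%). With quantile normalization they numbered 3 (1.83%, all genes 8.48%). Those higher in replicate 2 in both groups (3) numbered 16 with median-ratio scaling (9.76%, all genes 36.3%) and 36 with quantile normalization (22.0%, all genes 37.0%). With the 5 FPKM filter they numbered 0, against 20.5% of all genes. The median replicate difference (0.23) was 0.21 with the 5 FPKM filter, 0.15 with median-ratio scaling, 0.32 and 0.28 with pseudocounts of 0.1 and 0.5 FPKM, 0.0386 with quantile normalization, and 0.255 to 0.264 when each sample was left out. The cause was not tested.

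Of 589 values of 44 named genes under alternatives, 553 kept their direction and side of the threshold, 31 reversed, and 5, all of HNRNPF, lost the adjusted threshold (adjusted p 0.0988 with no filter, 0.0995 with no trend, 0.164 with the block, and the values without a control given above). When each sample was left out, log2 fold changes ran from -0.47 to 0.67 in ZNF121, -0.30 to 1.18 in ZNF146, -0.052 to 0.34 in ZNF20, -0.40 to 0.45 in ZNF224, -0.051 to 0.20 in ZNF266, -0.55 to 0.36 in ZNF283, -0.18 to 1.43 in ZNF302, -0.32 to 0.69 in ZNF324, -0.10 to 0.45 in ZNF345, -0.22 to 0.44 in ZNF417, -0.17 to 0.067 in ZNF524, -0.011 to 0.27 in ZNF580, -0.27 to 0.71 in ZNF587, -0.094 to 0.44 in ZNF765, -0.15 to 0.63 in ZNF83 and -0.31 to 0.54 in ZNF91. ZNF224 was at -0.018 with quantile normalization, and ZNF324 at -0.14 when summed with overlapping genes.

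The labels do not say what a replicate number marks, and 2 pairs cannot settle it. Replicate differences in knockdown and control had Pearson and Spearman correlations of 0.10 and 0.33 across the members and 0.39 and 0.50 across all tested genes, which are not independent replicates. With the replicate block 23 members had an unadjusted p under 0.05, and 0 passed the adjusted threshold. Of the 23, 18 were higher in knockdown (11.0% of members, 7.41% of all tested genes). The other 5 were lower (3.05% of members, 6.24% of all tested genes). Fragment totals are unknown, so the counting error of genes near 1 FPKM cannot be given.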
